A study of Homo sapiens with 4 samples.

Results

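The genes described here are 9 cell-surface receptor genes through which neuroblastoma cells receive growth and differentiation signals, namely ALK, LTK, NTRK2, NTRK3, NGFR, RET, GFRA2, GFRA3 and KIT. They were matched by their GENCODE symbols to the Ensembl identifiers of the gene count matrix. All 9 were found among 64252 genes, and 8 of them, all but NTRK3, carried enough counts to enter the test with 18779 genes in all. RNA sequencing had been performed on transfected cells of SK-N-BE(2), an established human neuroblastoma (NB) cell line. Cells of the control group carried a scramble short hairpin RNA (sh-Scb, n = 2 libraries). Those of the knockdown group carried short hairpin RNA against SAPCD2 (sh-SAPCD2, n = 2 libraries). No other agent separated the groups, all 4 libraries came from the same line, and the labels do not say whether the libraries of a group came from separate cultures. The p-values therefore measure only the spread between these libraries, which may be technical, and the comparison describes 1 cell line.

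RET is a receptor tyrosine kinase that binds its ligands, the GDNF family, only together with a membrane-anchored coreceptor of the GFRα family, of which GFRA2 prefers neurturin and GFRA3 prefers artemin. NTRK2 (TrkB) and NTRK3 (TrkC) are receptor kinases for the neurotrophins BDNF and NT-3, NGFR is the low-affinity receptor shared by all neurotrophins and lacks kinase activity, ALK and LTK are closely related kinases bound by the ALKAL proteins, and KIT is the receptor of stem cell factor (KITLG). In the sympathetic lineage from which NB arises, the kinases among these receptors act through the RAS-MAPK and PI3K-AKT cascades. Activating mutations of ALK are known in NB, TrkB with its ligand BDNF is linked to aggressive disease, and TrkC to favorable disease.

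The libraries held 25347900 to 31850997 counts, and 3 counts, taken as the smallest amount detectable, equaled 0.0954 to 0.118 CPM (the count of a gene relative to the total of its library). This limit covers counting error only. CPM values are scaled by the trimmed mean of M-values (TMM). The targeted gene SAPCD2 (ENSG00000186193, chromosome 9) was at 83.4 and 82.1 CPM in the control libraries and at 35.3 and 52.4 CPM in the knockdown libraries. The knockdown libraries thus retained 42.7% and 63.3% of the control mean, a log2 fold change of −0.91 (SE 0.193, adjusted p = 0.0206 by edgeR's quasi-likelihood test, adjusted for all tested genes by Benjamini-Hochberg, as are all p-values below). The knockdown was partial and uneven. Log2 CPM correlated across genes at 0.986 within the control pair and 0.98 within the knockdown pair, against 0.954 to 0.961 between groups. The spread of counts between libraries was nonetheless wider in the knockdown pair. There the chi-square per degree of freedom was 23.3, against 3.33 in the control pair. The test fitted a common dispersion per gene to both groups.

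The study lists hairpins 1 and 2 against SAPCD2, and the labels do not say which of them these libraries carried. Only hairpin 1, which targets the coding end of SAPCD2, was searched here. The arms of hairpin 1 are shown because bases 2 to 8 of a small RNA, in capitals, can pair with other transcripts.
guide arm: aTGAAGGTggaatccagaggt
passenger arm: aCCTCTGGattccaccttcat
In GENCODE 44 transcripts (hg38, positions counted from 1 at the 5′ end of the canonical transcript), the whole guide target was present once in SAPCD2 and in 0 of the 9 receptors. The 7 bases that pair with the guide, in capitals below, lie in the coding sequence of KIT, and those that pair with the passenger arm lie in the 3′ UTRs of RET and LTK. Matches in the other receptors are given as counts after the sequences.
SAPCD2, position 1271: ctggattccACCTTCAtctagtcct
KIT, position 1118: atgaacagaACCTTCActgataaat
RET, position 5060: cgcacacacCCAGAGGgagagtttg
LTK, position 2940: atcttggggCCAGAGGccgccttac
Such 7-base matches are common. The guide match occurred in the 3′ UTR of 12.5% of 13584 tested genes and the passenger match in 17.6%. Of the receptors, 2 held the former in the 3′ UTR (NTRK3 and GFRA2) and 2 the latter (RET and LTK). In coding sequences, the guide match occurred in 18.8% of 13618 tested genes and in 1 receptor (KIT), and the passenger match in 26.0% and in 4 receptors (ALK, LTK, NTRK3 and NGFR), so that receptors that were not called held matches as well. A match is a description of the letters, and whether it bears on any receptor level was not tested. For a library that carried hairpin 2, the arms and matches shown here would not apply.

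Across the 8 tested receptors, SAPCD2 knockdown was accompanied by higher RET and LTK and by lower GFRA3 and KIT. ALK, NGFR, NTRK2 and GFRA2 did not pass the adjusted p threshold of 0.05. Thus 4 of 8 passed, 2 in each direction, while over all tested genes 24.9% passed, 12.4% higher and 12.5% lower in the knockdown group. With the additional demand of an absolute log2 fold change over 1, by which the study defined differentially expressed genes (DEGs), 3 receptors remained (RET, LTK and GFRA3), against 9.85% of all tested genes. The values of the groups did not overlap for 5 of the 8, the 4 called genes and ALK, but this was so for 67% of all tested genes too. LTK met the filter on low counts only through the knockdown group, where it was high, and so had to differ to be tested. Of the other 7 receptors, 3 were called and 2 were DEGs. The median log2 fold change of the 8 was −0.26, and of the 7 −0.38, beside 0.02 over all tested genes. The receptors were chosen with earlier results of these data known, so these shares describe the receptors only.

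**Figure D1:**
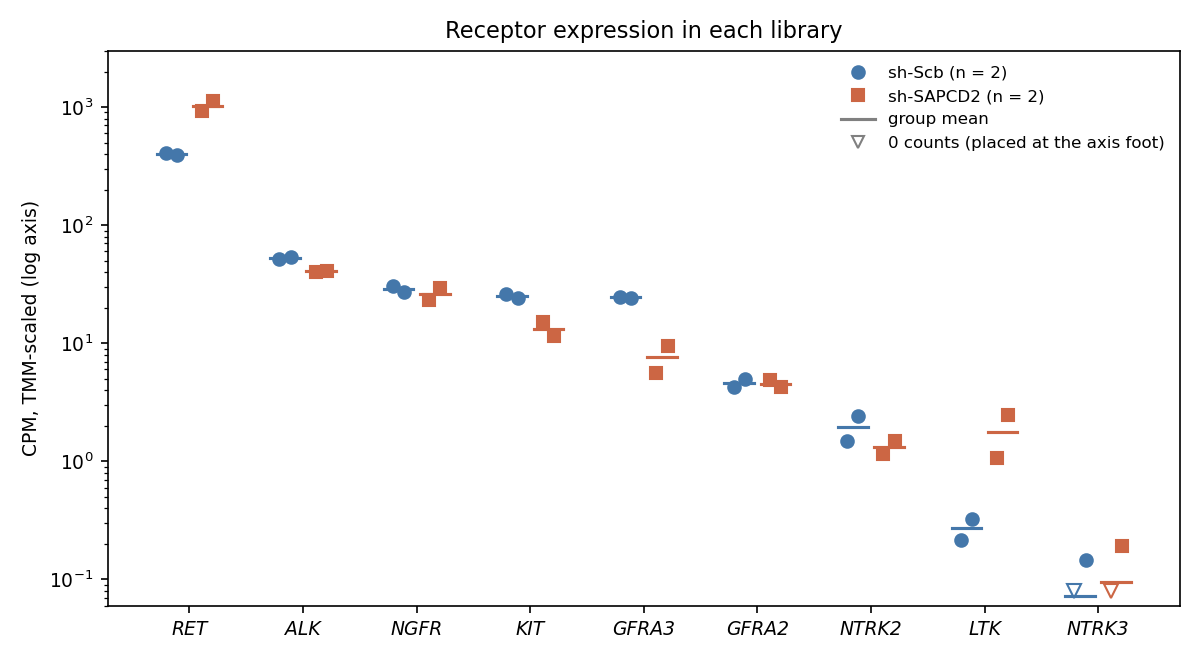
Expression of the 9 receptors in each library, as TMM-scaled CPM on a log axis, with circles for the 2 sh-Scb libraries, squares for the 2 sh-SAPCD2 libraries, bars for group means and open triangles for libraries with 0 counts. RET sits highest, from 394 to 1120 CPM, the 2 groups stand apart for RET, ALK, KIT, GFRA3 and LTK, and they overlap for NGFR, GFRA2, NTRK2 and NTRK3.

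RET (ENSG00000165731, hg38 chr10:43077064-43130351, plus strand) was the most abundant of the receptors and rose further upon knockdown. The control libraries held 11368 and 10863 RET counts, and the knockdown libraries 23563 and 35227. In CPM, 411 and 394 under sh-Scb stood against 929.6 and 1120 under sh-SAPCD2, so that each knockdown library stood far above each control library. The means were 403 ± 11.8 and 1025 ± 135 (SD, n = 2), a 2.55-fold difference. The log2 fold change was 1.35 (SE 0.119, 95% interval 1.06 to 1.64, adjusted p = 0.00265). RET supplied 74.8% and 74.2% of the summed CPM of the 9 receptors in the control libraries and 91.0% and 91.9% in the knockdown libraries. CPM is not divided by length here, so these shares weight long transcripts more. The sum of the other 8 was lower in the knockdown libraries, at 91.5 and 99.3 CPM against 139 and 137 CPM. The call held under all 12 alternative settings, with log2 fold changes from 1.21 to 1.47.

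GFRA3 (ENSG00000146013, chr5:138252380-138274621, minus strand), the coreceptor through which artemin engages RET, moved in the opposite direction to RET. It had 684 and 667 counts in the control libraries and 143 and 300 in the knockdown libraries. The corresponding CPM values were 24.7 and 24.2 against 5.64 and 9.54, and both knockdown libraries lay below both control libraries. They retained 23.1% and 39.0% of the control mean. The means were 24.5 ± 0.367 and 7.59 ± 2.76 CPM, 3.21-fold lower upon knockdown (log2 fold change −1.68, SE 0.255, 95% interval −2.30 to −1.06, adjusted p = 0.00800). GFRA3 also kept its call in all 12 alternatives, between −2.11 and −1.36.

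GFRA2 (ENSG00000168546, chromosome 8), the neurturin coreceptor, was at 4.23 and 4.97 CPM in the control libraries and at 4.85 and 4.26 CPM in the knockdown libraries. The groups overlapped, and the log2 fold change was −0.02 with a 95% interval of −0.54 to 0.51 (adjusted p = 0.967). A change of up to about this size in either direction is not excluded by that interval, and its sign turned under 3 alternatives. Of the remaining coreceptors of RET, GFRA1, which prefers GDNF, was at 2.02 and 2.29 CPM against 1.5 and 1.18 CPM (log2 fold change −0.69, adjusted p = 0.140). GFRA4 had no count in any library, and GFRAL, the receptor of GDF15, had 4 counts in the first control library and 0 in the others.

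LTK (ENSG00000062524, chr15:41503637-41513887, minus strand) was scarcely expressed in the control group and rose upon knockdown. Its counts were 6 and 9 in the control libraries and 27 and 77 in the knockdown libraries, or 0.217 and 0.327 CPM against 1.07 and 2.45 CPM. All 4 libraries were above the limit of 3 counts, and the knockdown libraries, although both higher, differed from each other by more than a factor of 2. The means were 0.272 ± 0.0776 and 1.76 ± 0.978 CPM, a 6.43-fold difference (log2 fold change 2.68, SE 0.570, 95% interval 1.30 to 4.07, adjusted p = 0.0210). Its control counts were under the filter's minimum of 10, so it was tested on account of the knockdown libraries alone. The call was lost without sh-SAPCD2 replicate 2 (log2 fold change 1.95, adjusted p = 0.0619) and when no filter on low counts was applied (2.68, adjusted p = 0.0659).

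ALK (ENSG00000171094, chr2:29192774-29921586, minus strand), the close relative of LTK, was about as abundant per length as NGFR in the control group. Its libraries had 51.8 and 54.0 CPM in the control group and 40.5 and 40.7 CPM in the knockdown group, and the groups did not overlap. The means were 52.9 ± 1.58 and 40.6 ± 0.111 CPM, and both knockdown libraries held about the same share of the control mean, 76.6% and 76.9%. The log2 fold change was −0.38 (SE 0.113, 95% interval −0.66 to −0.11), with an adjusted p of 0.0548, so ALK was not called. The sign was the same in all 12 alternatives. ALK passed with library totals in place of TMM (adjusted p = 0.0492, when 25.2% of all tested genes were called). It also passed with a mean of at least 1 CPM (0.0445, 30%) and after a correction for GC content and length (0.00339, 42.6%). With that correction and the replicate block it passed too (0.00442, 40.8%). It did not pass with the replicate block alone (0.111, 29.6%) or by DESeq2's Wald test (0.0766, 13.9%). With a library left out, its log2 fold change ran from −0.41 to −0.35. ALK shares 135 exon bases with CLIP4 on the opposite strand, which had 1293 and 1216 counts in the control libraries and 1718 and 1967 counts in the knockdown libraries. The strandedness of the counting is not given in the sources used here, so reads of the shared bases cannot be assigned.

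The relation of ALK and LTK is visible in their coding sequences. Around the 7-base passenger match, in capitals, 24 of 25 bases were the same in the 2 transcripts.
ALK, position 4819: tggatgcccCCAGAGGccttcatgg
LTK, position 2192: tggatgcccCCAGAGGccttcctgg
How reads that match more than 1 gene were counted is not given in the sources used here. ALK counts were at least 1027 in every library while LTK counts were at most 77.

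**Figure D2:**
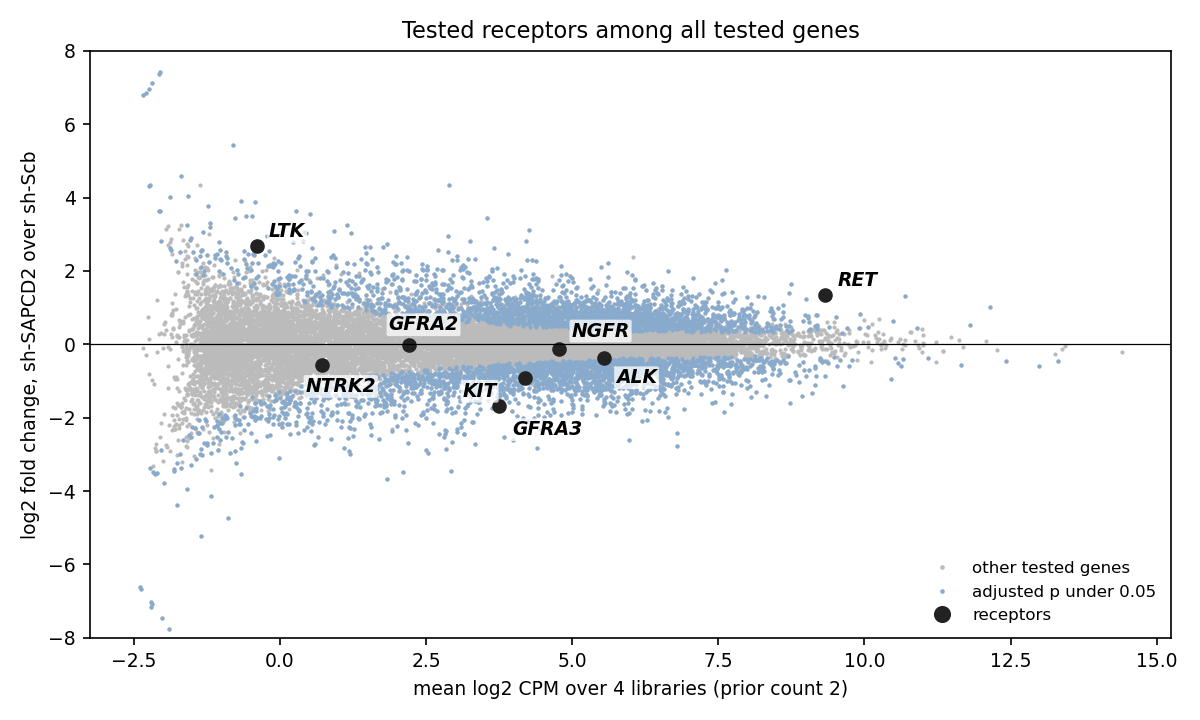
The 8 tested receptors (black) among all 18779 tested genes, with the mean log2 CPM over the 4 libraries on the x axis and the log2 fold change of sh-SAPCD2 over sh-Scb on the y axis; genes with an adjusted p under 0.05 are blue and the others grey. RET lies among the most abundant genes at 1.35, LTK among the scarce ones at 2.68, and GFRA3 at −1.68 and KIT at −0.92 lie below the zero line among the genes called lower.

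Of the neurotrophin receptors, none passed the threshold. NGFR (ENSG00000064300, chr17:49495293-49515008, plus strand) was at 30.3 and 26.9 CPM in the control libraries and at 23.1 and 29.2 CPM in the knockdown libraries, with overlapping groups. Its log2 fold change was −0.13 (SE 0.164, 95% interval −0.53 to 0.27, adjusted p = 0.596). The value depended on the processing. After the correction for GC content and length it was −0.36 (adjusted p = 0.0192, when 42.6% of all tested genes were called). Without sh-SAPCD2 replicate 1 it was 0.02. NGFR shares exon bases with NGFR-AS1 and another antisense gene, which had at most 18 counts in any library, against at least 586 for NGFR.

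NTRK2 (ENSG00000148053, chr9:84668375-85095751, plus strand) was low, at 1.48 and 2.43 CPM in the control libraries and 1.14 and 1.49 CPM in the knockdown libraries. The second knockdown library lay just above the first control library. The log2 fold change was −0.56 with a wide 95% interval of −1.45 to 0.33 (SE 0.365, adjusted p = 0.303). The gene has 58 annotated transcripts, some of them known to encode receptors without the kinase, and counts per gene do not separate these. NTRK3 (ENSG00000140538, chr15:87859751-88256791, minus strand) had 0 and 4 counts in the control libraries and 0 and 6 in the knockdown libraries. It did not enter the test, and a difference was not detectable at this depth.

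KIT (ENSG00000157404, chr4:54657267-54740783, plus strand) fell upon knockdown. It had 719 and 670 counts in the control libraries and 385 and 360 in the knockdown libraries. In CPM, 26.0 and 24.3 in the control group stood against 15.2 and 11.4 in the knockdown group, and both knockdown libraries lay below both controls, at 60.4% and 45.5% of the control mean. The means were 25.2 ± 1.19 and 13.3 ± 2.64 CPM (log2 fold change −0.92, SE 0.178, 95% interval −1.35 to −0.49, adjusted p = 0.0161). The change fell short of the DEG threshold on size. The call held in 11 of 12 alternatives and was lost without a filter on low counts (adjusted p = 0.0564).

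**Figure D3:**
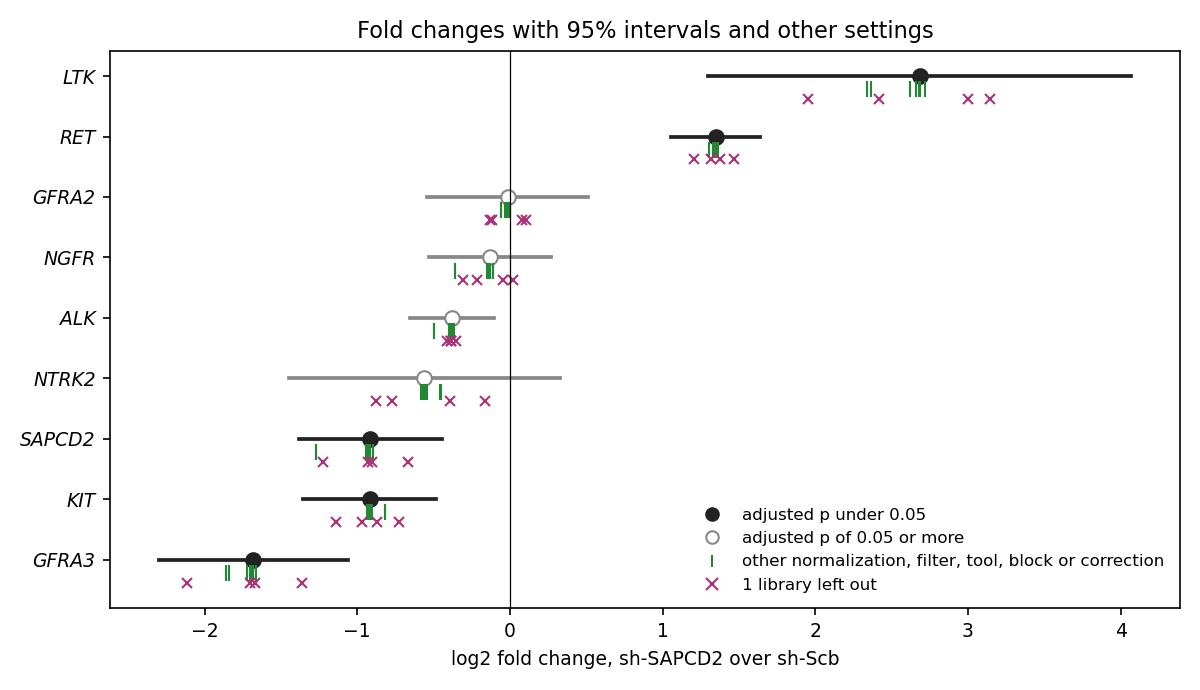
Log2 fold changes of sh-SAPCD2 over sh-Scb for the 8 tested receptors and SAPCD2, with 95% intervals as bars, filled circles for an adjusted p under 0.05 and open circles for others. Green ticks show the other normalizations, filters, tools, block and corrections, and purple crosses the 4 fits with 1 library left out; every mark of RET and LTK is to the right of 0, every mark of ALK, NTRK2, KIT and GFRA3 to the left, and those of GFRA2 and NGFR fall on both sides.

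Levels can be compared between receptors only per length, for which CPM was divided by the length of the canonical transcript in kilobases (kb). In the control group the order was RET (71.7 ± 2.1 CPM per kb), GFRA3 (12.3 ± 0.185), ALK (8.48 ± 0.254), NGFR (8.40 ± 0.706), KIT (4.89 ± 0.230), GFRA2 (0.922 ± 0.105), NTRK2 (0.226 ± 0.0775), LTK (0.0885 ± 0.0253) and NTRK3 (0.00363, SD, n = 2). Of these neighbors, ALK and NGFR did not differ beyond their spread. In the knockdown group RET was at 182 ± 24.0 CPM per kb, followed by NGFR (7.68 ± 1.26) and ALK (6.51 ± 0.0178), whose spreads touched. GFRA3 (3.82 ± 1.39) had moved from the second place to the fourth, where its spread overlapped that of KIT (2.59 ± 0.514). GFRA2 (0.913 ± 0.0838) and LTK (0.572 ± 0.318) also overlapped, and NTRK2 (0.152 ± 0.0286) and NTRK3 (0.00477) came last. With the length of all annotated exons in place of the canonical transcript, NTRK2 and LTK exchanged their places in the control group and the other 7 genes kept theirs.

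The promoters of the 4 called receptors are shown because these genes differed between the groups. Each window runs from 250 bases before to 50 bases after the start of transcription, 5′ to 3′ on the strand of the gene (RefSeq, GRCh38.p14), and windows were at hand for 7 of the 9 receptors. Capitals mark matches on either strand to the GC box GGGCGG or to an E2F consensus (TTTCCCGC, TTTGGCGC, TTTCGCGC or TTTGCCGC), the motif family on which the study focused. In RET, 4 GC box matches share bases or adjoin, and appear as 1 run.
RET, chr10:43076819-43077118, plus strand: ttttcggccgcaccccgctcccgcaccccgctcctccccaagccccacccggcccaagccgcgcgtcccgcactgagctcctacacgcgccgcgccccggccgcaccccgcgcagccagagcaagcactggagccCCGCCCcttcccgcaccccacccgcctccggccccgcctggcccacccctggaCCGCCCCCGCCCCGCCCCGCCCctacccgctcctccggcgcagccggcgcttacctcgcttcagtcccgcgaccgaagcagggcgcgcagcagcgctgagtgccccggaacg
LTK, chr15:41513778-41514077, minus strand: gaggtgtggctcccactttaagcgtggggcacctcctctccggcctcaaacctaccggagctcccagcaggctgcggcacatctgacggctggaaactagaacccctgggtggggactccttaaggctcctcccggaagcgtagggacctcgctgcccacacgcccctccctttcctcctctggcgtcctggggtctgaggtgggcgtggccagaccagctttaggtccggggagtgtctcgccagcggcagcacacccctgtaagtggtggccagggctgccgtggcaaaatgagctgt
GFRA3, chr5:138274572-138274871, minus strand: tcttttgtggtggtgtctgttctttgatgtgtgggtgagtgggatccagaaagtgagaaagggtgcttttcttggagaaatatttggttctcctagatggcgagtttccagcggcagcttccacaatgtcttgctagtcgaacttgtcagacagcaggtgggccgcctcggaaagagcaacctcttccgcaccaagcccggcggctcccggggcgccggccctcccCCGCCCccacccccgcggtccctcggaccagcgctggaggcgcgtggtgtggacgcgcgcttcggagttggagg
KIT, chr4:54657707-54658006, plus strand: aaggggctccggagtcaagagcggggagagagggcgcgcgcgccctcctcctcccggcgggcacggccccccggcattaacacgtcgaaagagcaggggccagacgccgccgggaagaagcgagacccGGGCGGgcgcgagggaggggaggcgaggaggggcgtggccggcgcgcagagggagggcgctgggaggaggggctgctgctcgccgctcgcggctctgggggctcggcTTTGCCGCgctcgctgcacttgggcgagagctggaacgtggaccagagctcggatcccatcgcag
The E2F consensus was found in KIT alone of the 7 windows, starting 15 bases before the start, and in 3.31% of 35116 RefSeq promoter windows. The GC box was found in 6 of the 7, with 5 matches in RET, 1 each in GFRA3 and KIT and 0 in LTK, and in 45.0% of all windows. The E-box CACGTG, which MYC and MYCN can bind, and the AP-1 motif TGANTCA were in 0 of the 7, and in 7.26% and 7.71% of all windows. The GC content was 78.7% in RET, 74.3% in KIT, 65.0% in LTK and 61.3% in GFRA3. A match is not a binding site, and the absence of one says only that these letters are not in the window.

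The 4 libraries were also searched for the genes with the profile most like each receptor that was a DEG, by the Euclidean distance of centered log2 CPM over the 4 libraries among 12520 protein-coding genes with a mean of at least 1 CPM. For RET these were CTSA, a lysosomal protease (distance 0.0459, log2 fold change 1.37), and PER1, a component of the circadian clock (0.0625, 1.29), and 613 genes lay within a distance of 0.5. For GFRA3 they were DYNC2I2, a dynein subunit (0.129, −1.81), and RASD2, a small GTPase (0.134, −1.85), with 68 genes within 0.5. For LTK they were HES7, a transcriptional repressor (0.333, 2.78), and DDR1, a collagen-binding receptor kinase (0.370, 2.32), with 11 genes within 0.5. With 4 libraries such profiles are coarse, and the number of genes within 0.5 ran from 11 for LTK to 613 for RET.

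SK-N-BE(2) libraries were checked against cell type markers. All 12 adrenergic markers of NB, such as HAND2, TH and DBH, were detected. Their summed level was 5699 and 5573 CPM in the control libraries and 4356 and 4989 CPM in the knockdown libraries. All 12 were tested, and 6 passed as lower (DBH, CHGB, ISL1 and STMN2 among them) and 0 as higher. Over all tested genes, 12.5% passed as lower and 12.4% as higher, which applies to the other marker lists as well. The 6 mesenchymal markers summed to 1252 and 1236 CPM in the control libraries and to 560 and 596 CPM in the knockdown libraries. Of them 4 were tested, VIM and FN1 passed as lower, and PRRX1 was at 0. The Schwann cell markers SOX10 and FOXD3 were at 0 in all libraries. The sum of all 5 was at most 7.12 CPM (2.40 to 3.72 in the control group, 4.89 to 7.12 in the knockdown group). Of the 5, 2 were tested and 1 passed as higher. For KIT, which mast cells and melanocytes also express, 4 of 7 leukocyte and mast cell markers (CPA3 and MS4A2 included) and the melanocyte marker TYR were at 0. The leukocyte and mast cell sum was 9.11 to 9.80 CPM in the control group and 11.4 to 13.0 in the knockdown group. Of these markers 2 were tested, with CD68 higher (tested only through the knockdown group, as was VWF below). The melanocyte sum was 7.66 to 8.71 and 8.94 to 11.3 CPM, and of 3 tested 0 passed. The 3 endothelial markers summed to 0.0726 to 0.470 and 0.986 to 1.03 CPM, with VWF, the 1 tested, higher. The part of the adrenergic and mesenchymal markers in the receptor differences was not tested, and in bulk RNA a smaller number of cells of a type and less RNA per cell cannot be told apart.

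Of 14 ligand genes of these receptors, 9 were tested, and not all of these are reported here. Among them 4 passed as higher and 1 as lower (55.6% called, beside 24.9% of all tested genes). Their median log2 fold change was 0.17. This list and those below were written with earlier results of these data known, so their shares describe the listed genes only. PTN (pleiotrophin), a heparin-binding growth factor that has been proposed as an ALK ligand, rose from 75.3 and 81.3 CPM to 161 and 161 CPM (log2 fold change 1.04, SE 0.101, adjusted p = 0.00322). MDK (midkine), its relative, was at 162 and 174 CPM in the control group and at 221 and 285 CPM in the knockdown group (0.59, adjusted p = 0.0305). The ALKAL ligands were scarce. ALKAL1 had no count in any library and ALKAL2 had 3 to 6 counts, so neither was tested.

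KITLG fell together with its receptor. It was at 25.7 and 23.9 CPM in the control libraries and at 11.6 and 8.68 CPM in the knockdown libraries, with a log2 fold change of −1.29 (SE 0.185, adjusted p = 0.00692). KIT and KITLG together summed to 51.7 and 48.2 CPM in the control group and to 26.8 and 20.1 CPM in the knockdown group.

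Among the neurotrophins, BDNF, the NTRK2 ligand, was at 9.69 and 9.40 CPM in the control group and 10.8 and 10.6 CPM in the knockdown group, and was not called (log2 fold change 0.17, adjusted p = 0.476). NTF3 and NTF4 had at most 3 counts in any library and were not tested.

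Among the ligands of the RET complexes, GDF15, a stress-induced cytokine, rose from 0.145 and 0.508 CPM to 3.31 and 4.87 CPM (log2 fold change 3.63, SE 0.526, adjusted p = 0.00714). The ligands of the GFRα coreceptors were not called. NRTN (neurturin) was at 1.88 and 1.89 CPM against 0.829 and 1.46 CPM (−0.70, adjusted p = 0.209), and PSPN (persephin) at 2.42 and 2.61 CPM against 1.5 and 1.21 CPM (−0.90, adjusted p = 0.0651). ARTN (artemin), which binds GFRA3, was low in all libraries, at 0.197 to 0.544 CPM (−0.34, adjusted p = 0.728). GDNF itself had 2 counts in the first control library and 0 elsewhere. GDNF, GFRA4 and GFRAL were thus under the limit of 3 counts in at least 3 of the 4 libraries.

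**Figure D4:**
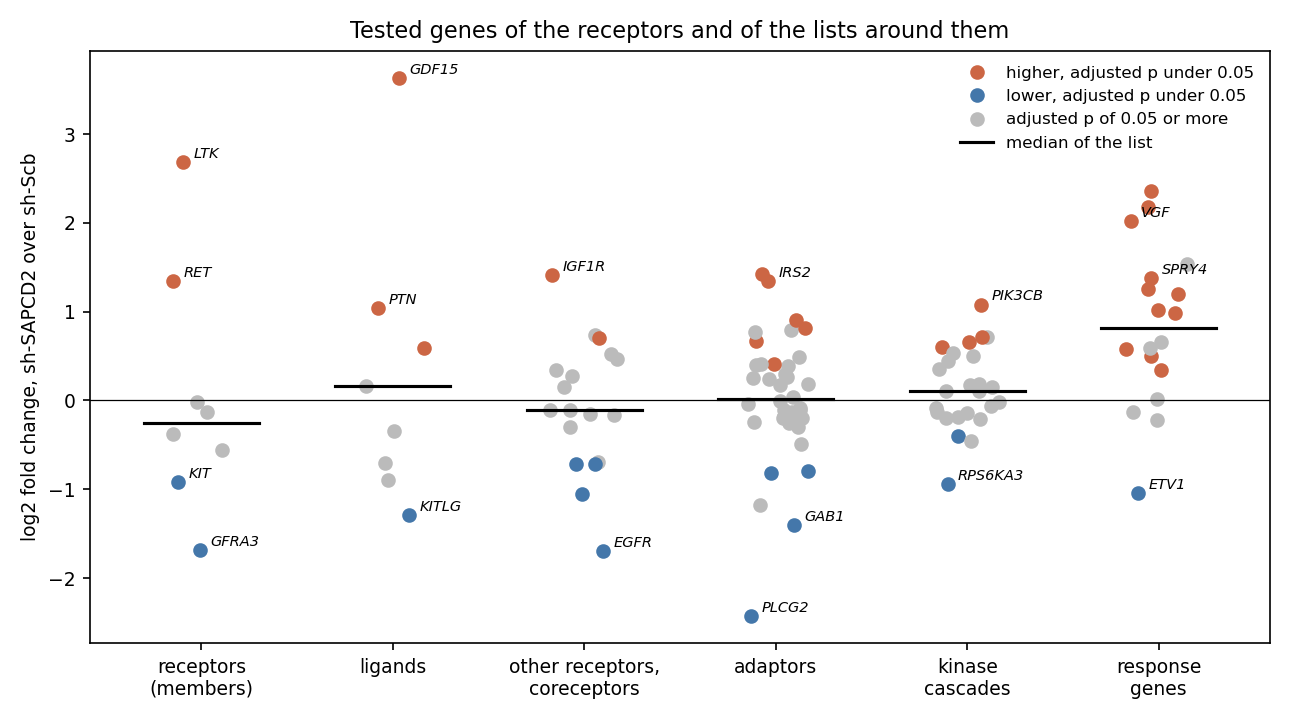
Log2 fold changes of sh-SAPCD2 over sh-Scb for the tested receptors and for the 5 lists around them, with 1 point per gene, red for higher and blue for lower at an adjusted p under 0.05, grey for others, and a bar at the median of each list; 1 tested ligand is not shown as a point. The response genes have the highest median, 0.82, and the tested receptors the lowest, −0.26.

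Of 28 other receptors and coreceptors, 18 were tested, and 2 passed as higher and 4 as lower (33.3% called, beside 24.9% of all tested genes, median −0.11). The receptors of insulin-like growth factor and insulin both rose, IGF1R from 259 and 254 CPM to 701 and 662 CPM (log2 fold change 1.41, adjusted p = 0.00201) and INSR from 45.2 and 44.4 to 70.9 and 75.0 CPM (0.70, adjusted p = 0.00865). EGFR fell from 34.7 and 34.8 CPM to 11.8 and 9.70 CPM (−1.70, adjusted p = 0.00284). FGFR1 (−0.72, adjusted p = 0.00928), PDGFRA (−0.71, adjusted p = 0.0206), a kinase of the same family as KIT, and ERBB2 (−1.05, adjusted p = 0.0352) fell as well. The count of called genes in this list was 2 without sh-Scb replicate 1 and 3 without sh-Scb replicate 2, when 11.9% and 11.7% of all tested genes were called, and 13 without sh-SAPCD2 replicate 1, when 42.4% were.

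Of 42 adaptors and proximal signaling genes, 38 were tested, and 6 passed as higher and 4 as lower (26.3%, close to the 24.9% of all tested genes), with a median of 0.02. IRS2, an adaptor of the insulin and IGF receptors, rose from 68.6 and 61.3 CPM to 157 and 173 CPM (1.34, adjusted p = 0.00262). SHC2 (1.42, adjusted p = 0.00824), NCK2 (0.82, adjusted p = 0.00902) and FRS2 (0.67, adjusted p = 0.0128), which couple receptor kinases to RAS and the cytoskeleton, were also higher. GAB1, a docking protein of several receptor kinases, fell from 35.9 and 42.3 CPM to 15.8 and 13.8 CPM (−1.40, adjusted p = 0.00394). MAGED1, which binds NGFR (−0.80, adjusted p = 0.00441), SOS2, an exchange factor for RAS (−0.82, adjusted p = 0.0127), and PLCG2, a phospholipase (−2.43, adjusted p = 0.0304), were lower too, PLCG2 from at most 22 counts in any library and tested only through the control group, where it was high. Leaving out sh-Scb replicate 1 gave 5 calls (11.9% of all tested genes), sh-SAPCD2 replicate 1 gave 23 (42.4%) and sh-SAPCD2 replicate 2 gave 17 (35.6%).

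All 25 genes of the RAS-MAPK, PI3K-AKT and STAT3 cascades were tested, and 4 passed as higher and 2 as lower (24.0%, beside 24.9% of all tested genes, median 0.11). PIK3CB, a catalytic subunit of PI3K, rose from 19.7 and 20.7 CPM to 46.5 and 38.9 CPM (1.08, adjusted p = 0.00589). STAT3 (0.66, adjusted p = 0.00763), the ribosomal S6 kinase RPS6KA2 (0.72, adjusted p = 0.00806) and MAP2K1, which encodes MEK1 (0.60, adjusted p = 0.0218), were higher. Another ribosomal S6 kinase, RPS6KA3 (−0.94, adjusted p = 0.00570), and NRAS (−0.40, adjusted p = 0.0441) were lower. The share of called genes was thus near that of all tested genes. The calls numbered 2 without either control library (11.9% and 11.7% of all tested genes), 15 without sh-SAPCD2 replicate 1 (42.4%) and 14 without sh-SAPCD2 replicate 2 (35.6%).

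The last list holds genes that growth factor signaling is known to induce. Of 19 such genes 18 were tested, 11 passed as higher and 1 as lower (66.7% called, beside 24.9% of all tested genes). By direction, 61.1% were higher and 5.56% lower, beside 12.4% and 12.5% of all tested genes. Of the list, 8 were DEGs, and the median was 0.82. The list was written from general knowledge with earlier results of these data known, so these shares describe the listed genes only. VGF, a neuropeptide precursor that neurotrophins can induce, rose from 103 and 95.3 CPM to 325 and 480 CPM (2.02, SE 0.193, adjusted p = 0.00313). The feedback inhibitors SPRY4, from 70.0 and 74.8 CPM to 184 and 194 CPM (1.38, adjusted p = 0.00203), and DUSP4, from 105 and 105 CPM to 212 and 214 CPM (1.02, adjusted p = 0.00298), rose in both knockdown libraries. IER3, an immediate early gene, rose from 1.19 and 1.38 CPM to 4.73 and 6.93 CPM (2.18, adjusted p = 0.00591). ETV1, a transcription factor of the ETS family, was the member that fell, from 91.3 and 102 CPM to 52.4 and 41.3 CPM (−1.05, adjusted p = 0.00691). DUSP6, a feedback phosphatase of ERK, was at 196 and 204 CPM in the control group and 205 and 199 CPM in the knockdown group (0.01, adjusted p = 0.925). These are transcript levels, and the phosphorylation of the receptors or of ERK was not measured in these libraries.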

How the data were processed

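RNA of SK-N-BE(2) cells was sequenced as paired-end reads, which the authors aligned to hg38 with HISAT2 2.2.0 (also named in the submitters' processing notes) and assembled with StringTie. The deposited values are whole-number gene counts that the authors had not normalized. The step that made counts, the strandedness and the treatment of reads with several matches are not given in the sources used here. Groups were taken from the labels. Counts were scaled by TMM and fitted in R 4.3.3 by edgeR 4.0.16 (glmQLFit and its quasi-likelihood test), after filterByExpr (minimum count 10, minimum total 15), with Benjamini-Hochberg adjustment over 18779 genes. This test was used in place of DESeq2, which the study used and which is an alternative here (DESeq2 1.42.0). The log2 CPM scale used a prior count of 2. Of 64252 genes, 56105 matched GENCODE 44, which gave positions and lengths. Total counts per library and the limit of 3 counts are given with the results. With 2 libraries per group, an exact permutation test of a single gene cannot go below p = 0.333, so none was run.

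On simulated counts for 18779 genes, 18217 were tested. Of 100 genes changed by a log2 fold change of 1, edgeR recovered 59, and of 100 changed by 2, it recovered 96. It called 8 unchanged genes. Counts were drawn from the control means with a common dispersion for all genes and both groups. Its biological coefficient of variation was 15.4%. In the real libraries the knockdown pair varied more than the control pair (chi-square per degree of freedom 23.3 against 3.33). These figures therefore need not hold for the real libraries.

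Members and lists were chosen with earlier results of these data known, the lists from general knowledge. Genes named were all 9 receptors, SAPCD2, most of the tested ligands and the 2 nearest profiles of each receptor DEG. Of each other list, at most the 4 called genes with the smallest p in each direction were named. GFRA1, GFRA4, GFRAL, DUSP6, the untested ligands, the overlapping genes and single marker genes were named after their values were seen. A few further genes of these lists enter the counts but are not reported here. Alternatives were other normalizations and filters, DESeq2, a replicate block, a correction for GC content and length (loess, span 0.3), both together, a fold threshold, and each library left out in turn.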

Additional observations from a re-analysis of the deposited data

How the results depend on the processing

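Leaving out a library rested on 1 library in an arm, assumed to vary like the other arm. The log2 fold change of SAPCD2 ran from −1.23 to −0.67 with a library left out, and its call was lost without a filter on low counts (−0.91, adjusted p = 0.0749), when the receptors called went from 4 to 2 and the share of all tested genes called from 24.9% to 6.47%. NGFR ran from −0.31 to 0.0223 with a library left out, positive without sh-SAPCD2 replicate 1, and GFRA2 from −0.13 to 0.11, positive without sh-Scb replicate 2 and without sh-SAPCD2 replicate 2 (0.08). GFRA2 was 0.000921 with DESeq2. The cause of these changes was not tested. With a library left out, the called genes numbered 4 to 5 receptors, 4 to 6 ligands, 2 to 13 other receptors, 5 to 23 adaptors, 2 to 15 cascade genes and 9 to 13 response genes, while 11.7% to 42.4% of all tested genes were called, lowest without a control library and highest without sh-SAPCD2 replicate 1. The fold threshold left 3 other receptors, 4 adaptors and 1 cascade gene, by construction. The correction for GC content and length gave 21 adaptors and 14 cascade genes (42.6% of all tested genes called), and with the replicate block 19 and 13 (40.8%). Same-numbered libraries did not deviate together over all genes (correlation −0.019). This cannot exclude a pairing that touches some genes, and the labels do not say whether the numbers pair libraries. The replicate block alone gave 4 receptors, 5 ligands, 6 other receptors, 12 adaptors, 9 cascade genes and 11 response genes (29.6% of all tested genes). Depth limits NTRK3, LTK and NTRK2, whose libraries held at most 6, 77 and 67 counts.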
